A study of Mus musculus with 8 samples.

Results

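A group of 10 imprinted genes was followed in mouse calf muscle: the noncoding RNAs H19, Meg3 and Rian, and the protein-coding genes Dlk1, Mest, Ndn, Cdkn1c, Grb10, Plagl1 and Peg3. They were chosen from a list of imprinted growth genes as those with a row in all 8 count tables that passed a filter on low counts. All 10 listed genes passed, out of 13174 genes that passed and 23282 rows in each table. The filter asked for about 0.978 CPM (counts scaled to a library size common to all libraries) in at least 2 libraries and at least 15 counts in all. The lowest of the 10 was Peg3, with 365 counts over the 8 libraries. Among the other imprinted genes examined, Tfpi2 passed narrowly, with 2 libraries at that minimum and a mean of 0.677 CPM. Usp29 fell just outside, with 1 such library and a mean of 0.655 CPM. The genes were picked with earlier results of these data known, so counts over them describe these 10 genes and support nothing about imprinted genes as a class.

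An imprinted gene is transcribed mainly from the copy inherited from one parent, according to methylation marks laid down in the germ line. Many such genes act on growth: as a rule of thumb, paternally expressed ones tend to promote it and maternally expressed ones to restrain it. Several are strongly expressed in fetal muscle, decline after birth and are found again in regenerating muscle or in its connective tissue cells. Here Dlk1, Mest, Ndn, Plagl1 and Peg3 are genes expressed from the paternal copy in most tissues, and H19, Meg3, Rian, Cdkn1c and Grb10 are expressed from the maternal copy in muscle. The mice were of the inbred strain C57BL/6, in which the parental copies carry the same sequence, so the counts sum both copies.

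The libraries were made from the gastrocnemius with a Lexogen QuantSeq kit, which reads the 3′ ends of transcripts. By their titles, 3 Normal libraries came from mice given saline under the skin and then water by mouth. Another 3 libraries, titled Control, came from mice given Lewis lung carcinoma cells, a mouse lung tumour line, and then water. The remaining 2, titled RP, came from mice with the same tumour that were dosed daily by mouth, from 2 weeks after the injection and for 2 weeks, with an extract of the peony Paeonia lactiflora (100 mg/kg, made in 30% ethanol). The labels give an age of 4 weeks and do not say at which point of the study it was recorded. The series title places the study in cancer cachexia, the muscle wasting that accompanies tumours. Nothing in the labels states that each library came from its own animal, and p-values therefore reflect only the variation among these libraries, which may be technical.

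The labels of 6 libraries conflict. The names and headers of all 6 Normal and Control tables carry the name of the other group. Groups were taken from the titles, and every direction holds for the titled groups. Should the table names be right, the sign of Control against Normal reverses and the RP comparisons with Normal and with Control swap. The 3 comparisons also share libraries, since each group enters 2 of them, so their results are not independent. Library totals ran from 9528011 to 12333767 counts. Haemoglobin genes took 4.57 to 19.7% of the counts in the titled Normal libraries, against 1.41 to 1.61% in titled Control and 0.862 to 3.83% in RP. In Normal, Hbb-bs and Hbb-b1 had 968927 and 952839 counts, and Hbb-bt and Hbb-b2 had 304248 and 288275. These near-equal rows may count the same beta-globin reads, which would inflate the shares. A list of erythroid markers without Hbb-b1 and Hbb-b2 took 3.14 to 13.6% in Normal, 1.03 to 1.18% in Control and 0.641 to 2.70% in RP. Normal 1 also stood apart in the share of the ribosomal RNA precursor Rn45s, 8.12% against at most 4.69% in the other libraries.

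Of the 10 genes, 5 were higher in titled Control than in titled Normal libraries: Dlk1, a transmembrane protein related to Notch ligands; Rian, a noncoding RNA of the same domain that hosts small nucleolar RNAs; Mest, a protein with a hydrolase fold; Ndn, necdin, a growth-restraining MAGE protein; and Cdkn1c, the cyclin-dependent kinase inhibitor p57. Their changes lay between 0.76 and 1.41 on the log2 scale, tested with edgeR (quasi-likelihood F-test), with p-values adjusted by Benjamini-Hochberg over all 13174 genes and a threshold of 0.05. None of the 10 was called lower. The same test called 10.4% of all genes in this comparison, 4.99% higher and 5.45% lower. In RP against Control, 0 of the 10 passed with edgeR, DESeq2 or limma-voom. At an unadjusted p under 0.05, 3, 3 and 4 of them passed in these tools, all lower in RP. At that unadjusted cut the same tools took 8.98, 8.40 and 8.38% of all genes in this comparison, and edgeR took 26.3% in Control against Normal and 17.1% in RP against Normal. The background share of calls at the adjusted threshold in RP against Control was 0.175%, with 0.144% higher and 0.0304% lower. Against titled Normal, 1 of the 10 was higher in RP, Ndn, with 2.50% of all genes called, 1.67% higher and 0.835% lower.

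The median log2 change of the 10 genes was 0.49 in Control against Normal, -0.37 in RP against Control and 0.19 in RP against Normal. Over all genes tested the medians were 0.00043, -0.0038 and -0.037. In Control against Normal 7 genes had a positive sign, and in RP against Control 9 had a negative sign. Groups of libraries did not overlap for 5 genes in Control against Normal, all higher in Control, where 31.3% of all genes did not overlap and 16.6% were higher without overlap. The same 5 genes did not overlap in RP against Control, all lower in RP, where 31.7% of all genes did not overlap and 16.4% were lower without overlap. In RP against Normal, Dlk1, Rian, Ndn and Cdkn1c lay above Normal without overlap and Peg3 below. Of all genes 30.8% did not overlap in this comparison, 15.4% in each direction. In bulk tissue, a change in the number of cells of a type and a change of RNA per cell cannot be told apart.

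**Figure D1:**
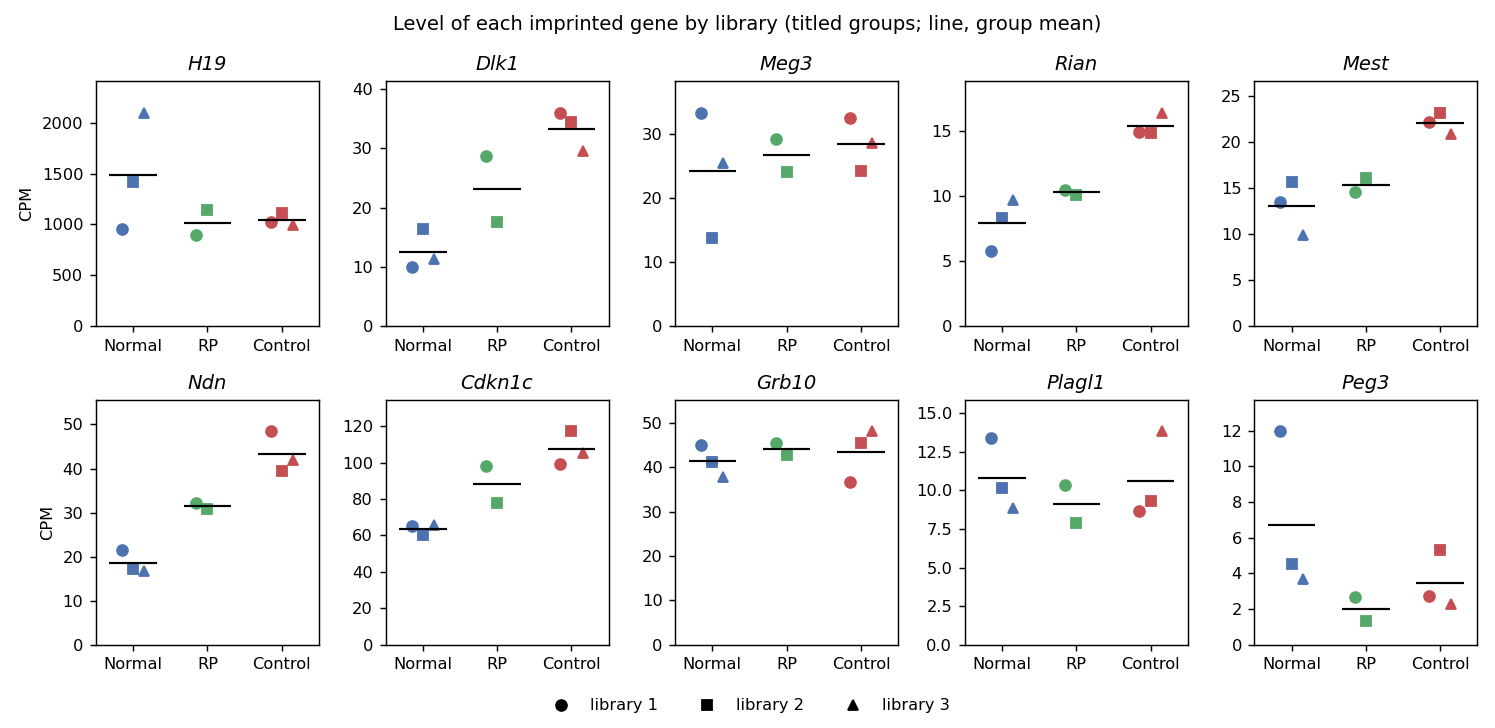
Level of each of the 10 genes in CPM (y axis, linear from 0) in the titled Normal, RP and Control libraries; each point is 1 library and the line is the group mean. Dlk1, Rian, Ndn and Cdkn1c step from Normal through RP to Control with no overlap between neighbouring groups, whereas Meg3, Grb10 and Plagl1 overlap throughout.

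**Figure D2:**
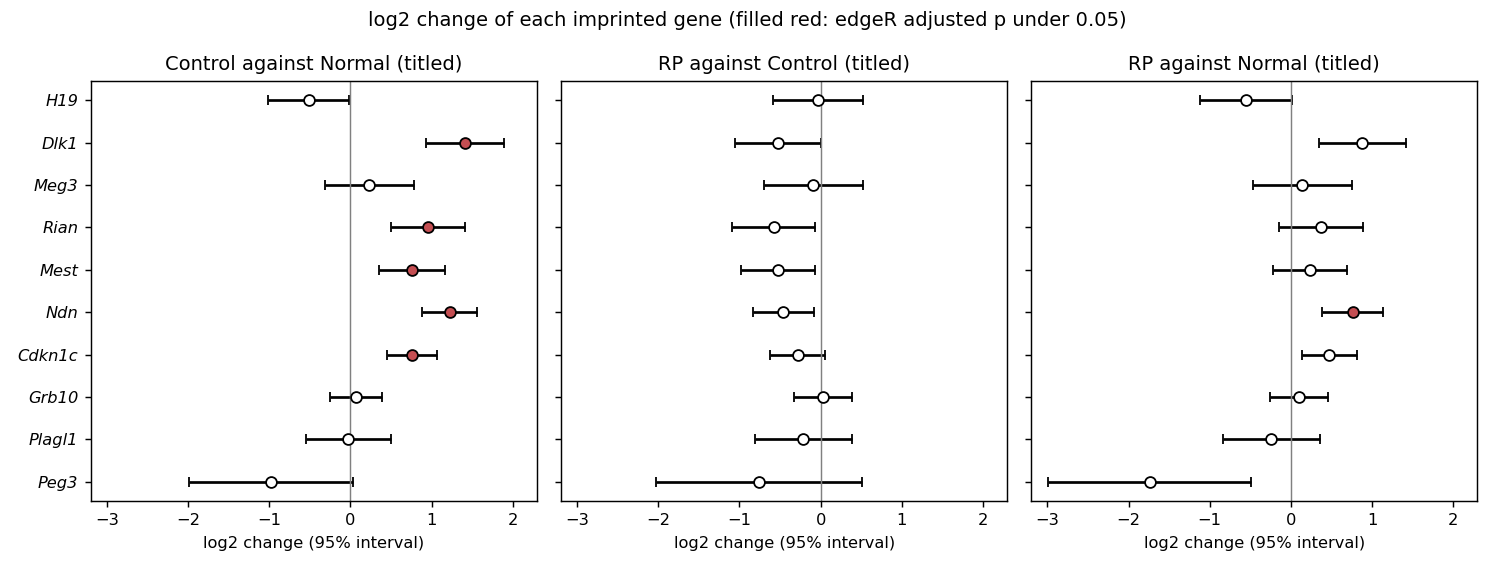
Log2 change (x axis) of the 10 genes in the 3 comparisons with 95% intervals from the edgeR fit; filled red points passed an adjusted p of 0.05. There are 5 filled points in Control against Normal, none in RP against Control and 1, Ndn, in RP against Normal.

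Dlk1, Meg3 and Rian share a domain on chromosome 12. In build mm10 with GENCODE annotation, Dlk1 lies at chr12:109452823-109463336, Meg3 at chr12:109541001-109571726 and Rian at chr12:109603940-109661716, all on the plus strand. Dlk1 is expressed from the paternal copy and is known for restraining adipocyte differentiation and for a role in muscle development and regeneration. Meg3 and Rian are read from the maternal copy, and Rian is the host of a long array of small nucleolar RNAs and of microRNAs.

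Dlk1 stood at 9.99, 16.4 and 11.4 CPM in Normal 1 to 3, at 36.0, 34.5 and 29.6 CPM in Control 1 to 3, and at 28.8 and 17.6 CPM in RP 1 and 2. Every Control library lay above every RP library, and every RP library above every Normal library. Its level was 2.65-fold higher in Control than in Normal (95% interval 1.90 to 3.71), a log2 change of 1.41 ± 0.22 (SE, edgeR adjusted p = 0.00172). RP against Control gave a log2 change of -0.53 ± 0.25 (edgeR adjusted p = 0.560), and RP against Normal 0.88 ± 0.25 (edgeR adjusted p = 0.0820). The latter passed the threshold with DESeq2 (adjusted p = 0.0303), without RP 2 (edgeR adjusted p = 0.0449) and without the filter on low counts (edgeR adjusted p = 0.0103). Without RP 1 it shrank to 0.49 (edgeR adjusted p = 0.558). The change in RP against Control was -0.92 without RP 1 and -0.21 without RP 2.

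Rian, the lowest of the 3 in raw counts, was at 5.76, 8.33 and 9.71 CPM in the Normal libraries, 14.9, 14.8 and 16.4 CPM in Control, and 10.5 and 10.1 CPM in RP. The 3 groups again did not overlap. Rian was 1.94-fold higher in Control than in Normal (95% interval 1.41 to 2.66), with a log2 change of 0.95 ± 0.21 (SE, edgeR adjusted p = 0.0120). Without Control 3 this call was lost (edgeR adjusted p = 0.0609). RP against Control gave -0.58 ± 0.24 (edgeR adjusted p = 0.501) and RP against Normal 0.37 ± 0.24 (edgeR adjusted p = 0.467). The latter was 0.19 without Normal 1 and 0.56 without Normal 3.

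Meg3, a noncoding RNA known as a growth suppressor in cell lines, varied as much within the Normal group as between groups. Its levels were 33.2, 13.8 and 25.4 CPM in Normal, 32.4, 24.1 and 28.6 CPM in Control, and 29.2 and 24.1 CPM in RP. The lowest and the highest library were both titled Normal. Control against Normal gave a log2 change of 0.23 ± 0.25 with a 95% interval of -0.31 to 0.78 (edgeR adjusted p = 0.612), and its sign turned without Normal 2 (-0.05). The 2 RP comparisons gave -0.091 and 0.14.

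Within a library, the ratio of Dlk1 to Meg3 counts sets a paternally against a maternally expressed gene of the domain, free of scaling between libraries. Its log2 was -1.73, 0.25 and -1.16 in Normal, 0.15, 0.52 and 0.05 in Control, and -0.02 and -0.45 in RP. The Normal libraries were the most spread, with 2 of them below every other library and Normal 2 above all but Control 2. Control minus Normal was 1.12 (exact permutation test, 2-sided, p = 0.3), and the smallest p that 3 against 3 or 2 against 3 libraries can give is 0.1. RP lay below Control without overlap, by 0.48 on average (exact permutation p = 0.1). Rian to Meg3 was -2.52, -0.72 and -1.39 in Normal, -1.12, -0.70 and -0.80 in Control and -1.48 and -1.25 in RP. Among these 9 tests of ratios, the lowest p adjusted by Benjamini-Hochberg was 0.45.

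**Figure D3:**
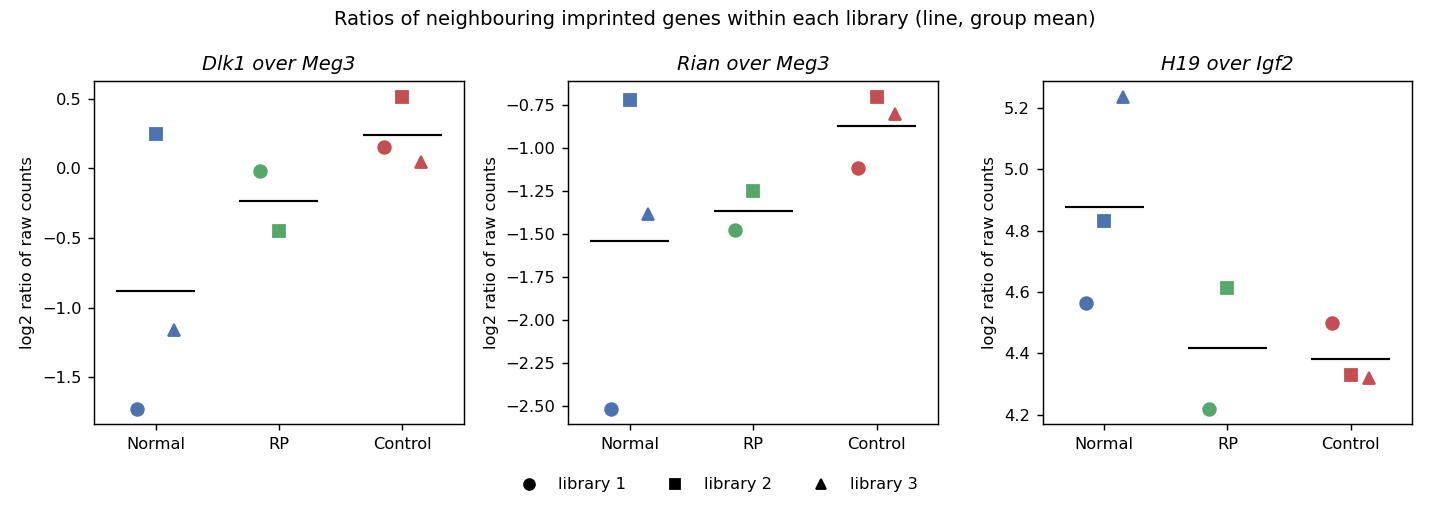
Log2 ratio of raw counts of neighbouring imprinted genes within each library (y axis; the axes do not start at 0) in titled Normal, RP and Control; points are libraries, lines are group means. The Normal libraries are spread widest in the ratios to Meg3, and in H19 over Igf2 the Control libraries lie below all Normal ones.

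The sequences before the start sites of Dlk1, Rian, Ndn and Mest are shown because these 4 genes moved together in Control against Normal, and that of Meg3 because it lies between Dlk1 and Rian and did not pass. Each is the 250 bases upstream of a RefSeq start on build GRCm38.p6, read 5′ to 3′ on the gene's strand. Capitals mark matches on either strand to an E-box (CANNTG, the site type of myogenic bHLH factors) or to TATAAA. Matches are descriptions of letters, not of binding.
Dlk1, chr12:109452573-109452822, plus strand: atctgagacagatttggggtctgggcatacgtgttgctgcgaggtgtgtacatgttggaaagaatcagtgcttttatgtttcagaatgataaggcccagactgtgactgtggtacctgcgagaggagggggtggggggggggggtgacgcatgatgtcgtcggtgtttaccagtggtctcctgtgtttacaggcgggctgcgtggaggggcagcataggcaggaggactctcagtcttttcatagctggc
Meg3, chr12:109540746-109540995, plus strand: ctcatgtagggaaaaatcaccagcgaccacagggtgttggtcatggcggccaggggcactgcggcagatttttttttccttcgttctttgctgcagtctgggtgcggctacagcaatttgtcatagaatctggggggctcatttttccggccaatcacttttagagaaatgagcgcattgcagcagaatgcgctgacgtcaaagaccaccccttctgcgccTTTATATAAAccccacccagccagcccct
Rian, chr12:109603695-109603944, plus strand: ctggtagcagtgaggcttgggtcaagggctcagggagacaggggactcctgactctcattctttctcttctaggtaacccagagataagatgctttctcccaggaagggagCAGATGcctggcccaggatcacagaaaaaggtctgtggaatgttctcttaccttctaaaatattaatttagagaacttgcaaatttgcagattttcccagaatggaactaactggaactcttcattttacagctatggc
Ndn, chr7:62348027-62348276, plus strand: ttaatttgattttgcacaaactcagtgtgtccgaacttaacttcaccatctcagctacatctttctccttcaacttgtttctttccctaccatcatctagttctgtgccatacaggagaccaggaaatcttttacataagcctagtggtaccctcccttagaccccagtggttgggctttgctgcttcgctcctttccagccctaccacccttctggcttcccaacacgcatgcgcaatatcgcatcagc
Mest, chr6:30737800-30738049, plus strand: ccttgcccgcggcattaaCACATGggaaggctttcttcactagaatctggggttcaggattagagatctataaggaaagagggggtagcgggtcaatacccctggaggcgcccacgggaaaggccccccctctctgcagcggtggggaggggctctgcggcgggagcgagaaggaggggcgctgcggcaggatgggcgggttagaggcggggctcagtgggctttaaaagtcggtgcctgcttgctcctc

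RefSeq's promoter table held entries for 8 of the 10 genes; H19 and Cdkn1c had none there. In the 300-base window, which runs 50 bases past the start, Rian and this Mest start each held 1 E-box and Dlk1 and Ndn held none, where 72.3% of the 32851 promoters in the table hold at least 1. The Meg3 window held TATAAA, present in 13.6% of promoters, as 2 matches that overlap on opposite strands. GGGGCCCC, a sequence that the PLAGL1 protein is known to bind, was found in 1.08% of all promoters and, among the windows of the 10 genes, in that of Peg3 alone. None of these windows held the CTCF core motif searched, found in 0.0365% of promoters. The Mest window held 17 CpG and the Rian window 0, around a median of 7 over all promoters, and the Dlk1 and Ndn windows held 9 and 11. No motif searched was present in the windows of all 4 genes.

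Of the other paternally expressed genes, Ndn had the smallest adjusted p of the 10 in Control against Normal. Ndn lies at chr7:62346569-62350262 (plus strand) in the domain of the Prader-Willi genes, and its protein binds E2F factors and promotes exit from the cell cycle. Its levels were 21.5, 17.2 and 16.8 CPM in Normal, 48.4, 39.5 and 41.9 CPM in Control, and 32.2 and 30.7 CPM in RP. The RP libraries lay between the other groups without overlap. Control was 2.34-fold higher than Normal (95% interval 1.85 to 2.95), a log2 change of 1.22 ± 0.16 (SE, edgeR adjusted p = 4.07e-04). RP was 1.70-fold higher than Normal (95% interval 1.31 to 2.20), a log2 change of 0.77 ± 0.17 (edgeR adjusted p = 0.0360). This second call was lost in 8 of 17 alternatives, with adjusted p up to 0.263 (without RP 1). It failed without RP 2, Normal 2 or any of the Control libraries, with only these 2 groups in the fit, and with a replicate block. RP against Control gave -0.46 ± 0.17 (edgeR adjusted p = 0.441).

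Mest, at chr6:30723547-30748465 on the plus strand, is a mesoderm-expressed gene linked to fat cell expansion. It was at 13.5, 15.7 and 9.90 CPM in Normal, 22.2, 23.2 and 20.9 CPM in Control, and 14.5 and 16.1 CPM in RP. Control lay above both other groups, while RP overlapped Normal. The Control to Normal ratio was 1.69 (95% interval 1.28 to 2.24), a log2 change of 0.76 ± 0.19 (SE, edgeR adjusted p = 0.0209). The call was lost on leaving out any 1 of the Control libraries, with adjusted p between 0.0611 and 0.0793. Between RP and Control the log2 change was -0.53 ± 0.21 (edgeR adjusted p = 0.488).

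The reads counted for Mest cannot be told apart from those of Copg2, a coat protein gene on the opposite strand. The last exon of Mest shares 912 bases with an exon of Copg2 (chr6:30747554-30748465), including the 3′ end of Mest where this kit reads. Raw counts of Mest and Copg2 were 150 and 157 in Normal 1, 164 and 170 in Normal 2, and 102 and 112 in Normal 3. They were 252 and 273 in Control 1, 232 and 235 in Control 2, and 231 and 243 in Control 3, then 135 and 138 in RP 1 and 157 and 172 in RP 2. Copg2 thus stood at 1.01 to 1.10 times Mest in every library, and its Control against Normal change was 0.75 ± 0.18 (edgeR adjusted p = 0.0188). The strand counted is not given in the sources used here.

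**Figure D4:**
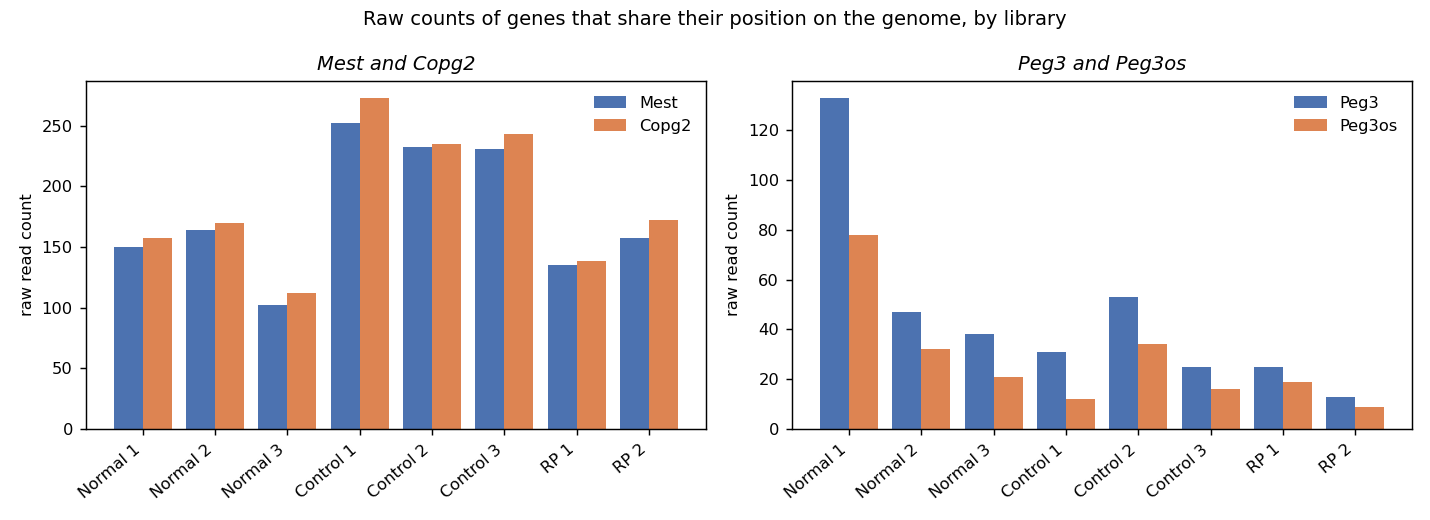
Raw read counts (y axis, from 0) of Mest beside Copg2 and of Peg3 beside Peg3os in each library; bars are single libraries without error. Mest and Copg2 are nearly equal in all 8 libraries, and Peg3os follows Peg3 at a lower level.

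Peg3, a zinc-finger gene at chr7:6703892-6730431 (minus strand) known to be expressed in muscle stem cells, had the lowest counts of the 10. Its levels were 11.97, 4.50 and 3.69 CPM in Normal, 2.73, 5.30 and 2.26 CPM in Control, and 2.69 and 1.34 CPM in RP. Normal 1 stood well above the other 7 libraries. The log2 change was -0.98 ± 0.47 in Control against Normal (edgeR adjusted p = 0.206) and -1.74 ± 0.58 in RP against Normal (edgeR adjusted p = 0.137). Without Normal 1 the first became -0.26 and the second -1.02 (edgeR adjusted p = 0.287). The second passed with DESeq2 (adjusted p = 0.0370) and without a filter on low counts (edgeR adjusted p = 0.0134), and without RP 2 its adjusted p was 0.427 (edgeR). Peg3os, an annotated antisense transcript inside Peg3, had 0.387 to 0.760 times the count of Peg3 in the 8 libraries, and the pair cannot be fully separated either.

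Plagl1, a zinc-finger transcription factor at chr10:13060504-13131694 (plus strand) that is placed upstream of several imprinted genes, showed no change that passed. It was at 13.4, 10.1 and 8.83 CPM in Normal, 8.64, 9.30 and 13.8 CPM in Control, and 10.3 and 7.92 CPM in RP. All groups overlapped, and the log2 change in Control against Normal was -0.028 ± 0.24 (95% interval -0.55 to 0.50, edgeR adjusted p = 0.959). Its relative Plagl2 gave -0.049 ± 0.47 in the same comparison (edgeR adjusted p = 0.965), and Plag1 was not tested, with at most 5 counts in any library.

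Of the maternally expressed protein genes, Cdkn1c was the one that passed. It lies at chr7:143458339-143461050 (minus strand), and its product p57 binds cyclin-dependent kinases and holds muscle precursors out of the cell cycle as they differentiate. Levels were 65.1, 60.0 and 65.6 CPM in Normal, 99.6, 117 and 105 CPM in Control, and 98.4 and 78.0 CPM in RP. The RP libraries lay between Normal and Control, with RP 1 close to Control 1. Cdkn1c was 1.69-fold higher in Control than in Normal (95% interval 1.36 to 2.09), a log2 change of 0.76 ± 0.14 (SE, edgeR adjusted p = 0.00492). The call held in all 17 alternatives, as did those of Dlk1 and Ndn. RP against Normal gave 0.47 ± 0.16 (edgeR adjusted p = 0.139) and RP against Control -0.28 ± 0.16 (edgeR adjusted p = 0.640). These depended on the RP library: they were 0.30 and -0.46 without RP 1, and 0.63 and -0.12 without RP 2.

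Other cell-cycle genes did not follow Cdkn1c as a group. Of 20 tested CDK inhibitors, cyclins and E2F partners, 2 were higher and 2 lower in Control than in Normal, with a median log2 change of -0.029. Cdkn1a, which encodes the related inhibitor p21, was at 79.5 to 119 CPM in Normal, 12.1 to 22.8 CPM in Control and 25.2 to 28.1 CPM in RP. It fell by 2.51 on the log2 scale in Control against Normal (edgeR adjusted p = 3.20e-05) and by 1.95 in RP against Normal (edgeR adjusted p = 0.00143). Cdkn1b, the inhibitor p27, changed by -0.14 ± 0.15 in Control against Normal (edgeR adjusted p = 0.609). Ccnd1, cyclin D1, was higher by 1.42 ± 0.27 (edgeR adjusted p = 0.00541), and E2f2 was lower by 2.07 (log2 change -2.07, edgeR adjusted p = 0.00524), with Normal libraries from 10.7 to 45.1 CPM. RP against Normal had 0 higher and 2 lower, Cdkn1a and E2f2. For RP against Control 0 of 20 passed with edgeR, DESeq2 or limma-voom, and 4 had an unadjusted p under 0.05 in each. These tools took 8.98, 8.40 and 8.38% of all genes at that cut.

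Grb10, at chr11:11930508-12038683 (minus strand), encodes an adaptor that binds the insulin and IGF1 receptors and dampens their signal. It was the least variable of the 10, with its highest library at 1.31 times its lowest. Levels were 45.1, 41.3 and 37.9 CPM in Normal, 36.8, 45.6 and 48.1 CPM in Control, and 45.6 and 42.9 CPM in RP. The groups overlapped, and Control against Normal gave 0.07 ± 0.15 with a 95% interval of -0.25 to 0.39 (edgeR adjusted p = 0.810). Its relative Grb14, an adaptor of the same family, was at 4.17 to 7.02 CPM in Normal, 14.2 to 15.5 CPM in Control and 12.9 to 14.0 CPM in RP. Grb14 was higher by 1.53 ± 0.22 in Control and by 1.36 ± 0.25 in RP, each against Normal (edgeR adjusted p = 0.00104 and 0.0109). Grb7 was not tested, with at most 7 counts in a library.

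Of 22 tested insulin and IGF receptor adaptors and signalling partners, 2 were higher and 3 lower in Control than in Normal. The lower ones included Ptpn1, a phosphatase of the insulin receptor (-0.78 ± 0.14, edgeR adjusted p = 0.00384), and Pik3r1, the regulatory subunit of PI3 kinase (-0.95 ± 0.23, edgeR adjusted p = 0.0184). RP against Normal had 1 higher, Grb14, and 0 lower. For RP against Control 0 passed with any of the 3 tools, and 4 had an unadjusted p under 0.05 in each. At that cut edgeR, DESeq2 and limma-voom took 8.98, 8.40 and 8.38% of all genes. For the Notch pathway, to which Dlk1 is related, 0 of 28 tested genes passed in any comparison with edgeR. At an unadjusted p under 0.05 edgeR took 4 in Control against Normal, 4 in RP against Control and 6 in RP against Normal. Of all genes it took 26.3, 8.98 and 17.1% at that cut. DESeq2 called 1 of the 28 in Control against Normal and 0 in the others, and limma-voom called 0 in all 3. Dlk2, the relative of Dlk1, was not tested, with at most 14 counts in a library.

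H19 was the most counted of the 10, taking 8281 to 21616 raw counts. It lies at chr7:142575529-142578143 (minus strand) beside Igf2 and is read from the maternal copy. H19 stood at 952, 1419.8 and 2098 CPM in Normal, 1020.8, 1111 and 999 CPM in Control, and 892 and 1144 CPM in RP. The Normal libraries spread over a wider range than all others, with Normal 1 inside the range of Control and RP and Normal 3 highest. The log2 change was -0.51 ± 0.23 in Control against Normal (edgeR adjusted p = 0.177) and -0.55 ± 0.26 in RP against Normal (edgeR adjusted p = 0.305). Without Normal 1 both passed, at -0.75 (edgeR adjusted p = 0.0115) and -0.79 (edgeR adjusted p = 0.0324). Without Normal 3 they shrank to -0.19 (edgeR adjusted p = 0.536) and -0.20 (edgeR adjusted p = 0.620). RP against Control gave -0.035 ± 0.26, with a 95% interval of -0.59 to 0.52 (edgeR adjusted p = 0.983).

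Within the Normal group, the library with the most H19 (Normal 3) also had the highest summed level of haemoglobin genes, 235933 CPM, and the one with the least (Normal 1) had the lowest, 43250.2 CPM. Within Control, both H19 and the haemoglobin sum were highest in Control 2 (sum 16135.9 CPM), then Control 1 (13699.6 CPM), and lowest in Control 3 (12744.5 CPM). RP 2 had more of both than RP 1 (sums 39705.9 and 8853.93 CPM). Between groups the order did not always hold: Normal 1 had a higher haemoglobin sum than the Control libraries and less H19 than each of them. The haemoglobin sums hold the near-equal beta-globin rows named above and may be inflated. The part of red cell RNA in the H19 values was not tested. Removing the haemoglobin genes and Rn45s before scaling left the call of each of the 10 genes as it was in all 3 comparisons. Igf2, the growth factor gene beside H19, overlapped between all groups, with a log2 change of 0.046 ± 0.15 in Control against Normal (edgeR adjusted p = 0.886). The log2 ratio of H19 to Igf2 counts was 4.56, 4.83 and 5.24 in Normal, 4.50, 4.33 and 4.32 in Control and 4.22 and 4.61 in RP. Control lay below Normal without overlap, by 0.50 on average (exact permutation p = 0.1, the smallest possible).

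Several of these genes carry microRNAs, and the mature sequences of 4 are shown because a change in the host transcript does not measure them. H19 holds Mir675 in an exon, Meg3 holds Mir770, Rian holds Mir370, Mir341 and Mir1188 in introns, and Mest holds Mir335 in an intron. None of these 6 hairpins had a row in the tables, and the microRNAs are not analysed here. Sequences are from RefSeq (GRCm38.p6), 5′ to 3′, with the seed (bases 2 to 8) in capitals; no seed is shared among them.
miR-675-5p, H19: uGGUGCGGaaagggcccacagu
miR-675-3p, H19: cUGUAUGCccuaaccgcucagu
miR-370-3p, Rian: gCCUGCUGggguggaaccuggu
miR-335-5p, Mest: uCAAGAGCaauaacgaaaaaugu

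Grouped by the copy they are read from, 3 of 5 paternally expressed genes (Dlk1, Mest, Ndn) and 2 of 5 maternally expressed genes (Rian, Cdkn1c) were higher in Control than in Normal. The median log2 changes were 0.76 and 0.23. By product, 1 of 3 noncoding RNAs and 4 of 7 protein genes were higher. Genes of either parental copy and of either product stood on both sides of the threshold. Of all genes, 4.99% were called higher in this comparison. Mest is counted here although its reads cannot be told apart from those of Copg2. Over the 8 libraries, the SD of log2 CPM was 0.90 for Peg3 and 0.72 for Dlk1. These were wider than in 98.2% and 96.4% of the 9737 genes with a mean of at least 5 CPM. Peg3 itself, at a mean of 4.31 CPM, is not among those genes. The SD was 0.14 for Grb10, wider than in 5.83% of the same 9737 genes. Within groups, the SD of log2 CPM was larger in Normal than in Control for 7 of the 10 genes, the others being Cdkn1c, Grb10 and Plagl1.

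Markers of other cell types were read beside these genes. Among 16 markers of fibro-adipogenic progenitors, the connective tissue cells of muscle, 10 were higher and 0 lower in Control than in Normal, with a median log2 change of 1.12. They included Smoc2 (1.17 ± 0.13, edgeR adjusted p = 1.61e-04), Lum (1.12 ± 0.16, edgeR adjusted p = 8.42e-04) and Col3a1 (2.85 ± 0.39, edgeR adjusted p = 6.70e-04). Pdgfra, which defines these cells, gave 0.21 ± 0.20 (edgeR adjusted p = 0.552), and Dcn, also on the imprinted list, -0.18 ± 0.16 (edgeR adjusted p = 0.533). The summed level of the list was 7344 to 13009 CPM in Normal, 13030.3 to 14656 CPM in Control and 12492 to 12878 CPM in RP. Of the 16, 5 were higher in RP than in Normal, and 0 passed in RP against Control with edgeR. Of all genes, 4.99% were called higher in Control against Normal, 1.67% higher in RP against Normal and 0.175% either way in RP against Control. This list thus had its summed level highest in Control, as Dlk1, Rian, Mest, Ndn and Cdkn1c did. The likeness did not hold for every library. Normal 1, with a sum of 13009 CPM, lay above both RP libraries in the list and below both in each of these genes. It had the lowest Dlk1 and Rian of all libraries, at 9.99 and 5.76 CPM. The part of this list in the values of these genes was not tested.

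Muscle fibre markers were higher for 4 of 16 genes and lower for 0 in Control against Normal, with a median log2 change of 0.013. Their sums, in which the most abundant genes weigh most, were 118876 to 162270 CPM in Normal. They were 166825 to 196613 CPM in Control and 196404 to 201795 CPM in RP. Every one of the 16 was detected in each library. Satellite cell and myoblast markers were lower for 3 of 14 and higher for 0, with sums of 329 to 428 CPM in Normal and 224 to 262 CPM in Control. Tenocyte markers were higher for 3 of 10, with sums of 341 to 958 CPM in Normal and 748 to 768 CPM in Control. Erythroid and neutrophil markers were lower for 9 of 10 each in Control against Normal. In this comparison 4.99% of all genes were called higher and 5.45% lower. The part of these lists in the values of the 10 genes was not tested.

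**Figure D5:**
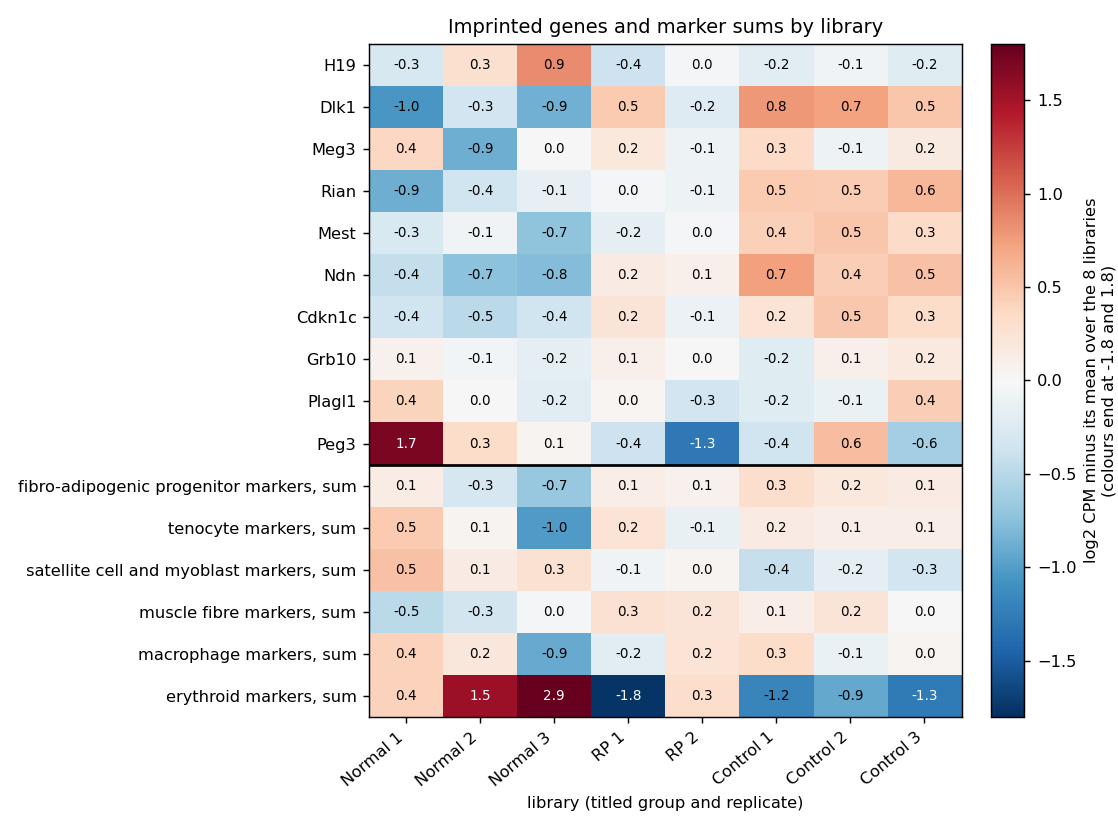
Log2 CPM minus its mean over the 8 libraries (colour and printed value, with values past the ends of the scale drawn in the end colour) for the 10 genes, above the line, and for summed cell type markers, below it, in each library. The Control columns are positive for Dlk1, Rian, Mest, Ndn and Cdkn1c and for the fibro-adipogenic progenitor and tenocyte sums. The progenitor sum is also positive in Normal 1 and both RP columns, and the tenocyte sum in Normal 1, Normal 2 and RP 1. Erythroid markers peak in Normal 3.

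Likeness of pattern was measured as the root mean square distance between centred log2 CPM over the 8 libraries, against 9737 genes with a mean of at least 5 CPM. Over all pairs within the 10 genes, the closest were Grb10 and Plagl1 at 0.21, followed by Rian and Cdkn1c at 0.25, Mest and Cdkn1c at 0.25 and Ndn and Cdkn1c at 0.27. The distance is not scaled, so genes that vary little lie close to many others. The median gene was at 0.285 from Grb10 and 0.375 from Plagl1. Dlk1 and Meg3, neighbours on the chromosome, were 0.72 apart. The nearest genes to Ndn were Tpst1 at 0.106 and the progenitor marker Smoc2 at 0.123, where the median gene was at 0.598. Nearest to Dlk1 were Mrgprf at 0.139 and Fam189b at 0.178. Rian lay closest to Mmp15 (0.120) and Bloc1s5 (0.130), and Cdkn1c to Supt7l (0.0877) and Gnao1 (0.113). Mest had Copg2, which shares its reads, at 0.0413 and Hmgn3 at 0.118.

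Of the genes that did not pass, H19 was nearest to Rps20 (0.0710) and Sptb (0.107). Meg3 was nearest to Gorab (0.138) and to Neat1 (0.149), another nuclear noncoding RNA. Grb10 had Mccc1 (0.0617) and Tpp1 (0.0678) as neighbours and Plagl1 had Lrch3 (0.107) and Inpp5b (0.112). No gene came closer to Peg3 than Rai14 at 0.385. Libraries share depth and scaling, so these distances are descriptions.

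A wider list of 82 other imprinted genes had 79 with a row and 56 tested. In Control against Normal 3 were higher and 2 lower, with a median log2 change of 0.081. Of all genes 10.4% were called in this comparison, 4.99% higher and 5.45% lower. The higher ones of the 56 were Copg2, Nnat and Gatm. The reads of Copg2 cannot be told apart from those of Mest. Nnat is a neuronal proteolipid gene (1.41 ± 0.41, edgeR adjusted p = 0.0461), and Gatm encodes an enzyme of creatine synthesis (0.88 ± 0.22, edgeR adjusted p = 0.0246). Nnat was highest in Control 3, at 127 CPM, where the lowest Control library was at 39.6 CPM and Normal ran from 12.6 to 35.9 CPM. Zrsr1, a splicing factor gene within the span of Commd1, was lower by 0.93 (log2 change -0.93, edgeR adjusted p = 0.00377). Commd1 gave 0.47 ± 0.18 (edgeR adjusted p = 0.127), and the ratio of its count to that of Zrsr1 ran from 0.542 to 1.86 over the libraries, so their counts did not move together.

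Impact, a regulator of the GCN2 stress kinase, was at 28.3, 30.0 and 18.0 CPM in Normal, 11.2, 9.70 and 8.95 CPM in Control, and 34.6 and 32.6 CPM in RP. Control lay below both other groups. The log2 change was -1.35 ± 0.20 in Control against Normal (edgeR adjusted p = 0.00125) and 1.75 ± 0.22 in RP against Control (edgeR adjusted p = 0.00425). In RP against Control, with 0.175% of all genes called by edgeR, Impact was the single imprinted gene to pass with edgeR of these 56 and the 10 above. DESeq2 called 2 of the 56 in this comparison and limma-voom 1, with 112 and 10 called of all genes. Between RP and Normal 1 of the 56 passed with edgeR, Zrsr1, lower in RP at -0.78 ± 0.19 (edgeR adjusted p = 0.0499). Of all genes edgeR called 2.50% between RP and Normal, 0.835% lower in RP. There DESeq2 called 4 of the 56 and limma-voom 1.

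The fixed neighbours of the 10 genes that were tested, Copg2 apart, did not pass in Control against Normal. Kcnq1ot1, the noncoding RNA of the domain that holds Cdkn1c, gave -1.003 ± 0.43 in Control against Normal (edgeR adjusted p = 0.160), with Normal 1 at 53.9 CPM and every other library between 11.2 and 19.1 CPM. Snrpn, in the domain of Ndn, gave 0.49 ± 0.19 (edgeR adjusted p = 0.130) in that comparison and 0.77 ± 0.21 in RP against Normal (edgeR adjusted p = 0.0820). Dio3, at the far end of the Dlk1 domain, gave -0.22 ± 0.44 (edgeR adjusted p = 0.803). At imprinted loci apart from those of the 10 genes, Peg10 gave -1.13 ± 0.49 (edgeR adjusted p = 0.164) at 0.647 to 3.16 CPM. Also at such loci, Sgce gave -0.035, Igf2r 9.2e-05 and Gnas 0.14 on the log2 scale. Rtl1 had 3 counts over all libraries, Magel2 had 1 and Phlda2 had 0, so a difference in these was not detectable at this depth. Usp29 and Zim1, beside Peg3, had 54 and 25 counts and were not tested, and Mirg was not analysed here.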

How the data were processed

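The authors deposited 1 table of raw read counts per gene symbol for each of 8 mouse gastrocnemius libraries. Per the submitters' processing notes, Bowtie2, edgeR and build mm10 were used; versions, annotation, counting tool and strand are not given in the sources used here. The counts were used as deposited, and 35 symbols listed more than once (none of the 10 genes) were kept as separate rows.

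Libraries were grouped by title and fitted together in R 4.3.3 with edgeR 4.0.16 (filterByExpr, TMM, quasi-likelihood test, 2-sided, no replicate block). P-values were adjusted by Benjamini-Hochberg over the 13174 genes tested, with a threshold of 0.05. CPM is the count scaled by the TMM-adjusted library size, log2 CPM has a prior count of 2, and SE and 95% intervals come from the fit. The common biological coefficient of variation was 0.195. Ratios of 2 genes were compared by exact permutation tests. Positions and overlaps came from GENCODE M21 for mm10, and sequences from RefSeq tables for GRCm38.p6.

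The members and lists were chosen with earlier results of these data known. Named were all 10 genes, fixed neighbours and relatives, fixed imprinted genes of other loci, and listed imprinted genes past the threshold. Up to 3 genes per pathway list and the 2 genes nearest in pattern to each member were also named. The alternatives tried were normalization by RLE or by upper quartiles, leaving genes unfiltered, asking for a mean of at least 5 CPM, DESeq2 1.42.0, voom from limma 3.58.1, the 2 compared groups alone, a replicate block, a threshold of 0.1, removal of haemoglobin genes and Rn45s, and leaving out each library. In simulated data for Control against Normal (13174 genes) the test recovered 7.46% of 1.5-fold, 61.2% of 2-fold and 92.4% of 4-fold changes. For RP against Control these were 4.48, 46.3 and 81.8%, and for RP against Normal 4.48, 41.8 and 84.8%. Of the calls made in the simulations, 2.73% in Control against Normal were false, 7.37% in RP against Control and 5.43% in RP against Normal. Replicate libraries differed by more than sampling noise, so none was counted as a duplicate. Figures used matplotlib 3.10.9.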

Additional observations from a re-analysis of the deposited data

How the results depend on the processing

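Over the 10 genes and their alternatives, 158 of 169 values in Control against Normal, 160 of 169 in RP against Control and 153 of 169 in RP against Normal kept their direction and their side of the threshold. The cause of the exceptions was not tested unless given here. Signs turned for Meg3, Grb10, Plagl1 and H19, whose intervals included 0 in those comparisons. In Control against Normal, Plagl1 became 0.017 with upper-quartile scaling, 0.16 without Normal 1, 0.10 without Control 1 and 0.071 without Control 2; Meg3 became -0.050 without Normal 2, and Grb10 -0.0064 without Control 3. In RP against Control, Grb10 became -0.0065 with upper-quartile scaling, -0.083 without Control 1 and -0.019 without RP 1. H19 became 0.068 with a replicate block, 0.018 without Control 2 and 0.13 without RP 1, Meg3 0.015 without Control 1 and 0.044 without RP 2, and Plagl1 0.025 without Control 3. In RP against Normal, Meg3 became -0.14 without Normal 2 and -0.0047 without RP 1. The opposite ends of these leave-one-out ranges were 0.53 (Meg3), 0.18 (Grb10) and -0.27 (Plagl1) in Control against Normal, -0.22 (H19), -0.24 (Meg3) and -0.42 (Plagl1) in RP against Control, and 0.44 (Meg3) in RP against Normal.

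Counts over all genes moved more. A threshold of 0.1 gave 2201 genes in Control against Normal, 51 in RP against Control and 710 in RP against Normal. In RP against Control, no filter gave 204, a mean of at least 5 CPM gave 11, DESeq2 gave 112, limma-voom gave 10 and the 2 groups alone gave 121. In RP against Normal, no filter gave 718, DESeq2 663 and the 2 groups alone 100. Of the 10 genes, RP against Normal then had 3 past the threshold without a filter, 3 with DESeq2, 0 with the 2 groups alone, 0 with a replicate block and 2 at a threshold of 0.1. Leaving out 1 library gave 608 to 1858 genes, and 3 to 6 of the 10, in Control against Normal. It gave 8 to 72 genes and 0 of the 10 in RP against Control, and 57 to 670 genes and 0 to 2 of the 10 in RP against Normal. The lowest of these counts came without Control 3, Control 2 and RP 1, and the highest without Normal 1, Normal 3 and Normal 1. A lone RP library was taken to have the spread of the other 2 groups. Upper-quartile scaling split the Control against Normal calls into 761 higher and 615 lower, against 658 and 718.

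After subtracting group means, same-numbered libraries of the titled groups correlated at -0.067, -0.019 and -0.042 (Control with Normal). The values were -0.068 and -0.058 for RP with Control and 0.052 and 0.080 for RP with Normal. With 2 or 3 libraries a group, such correlations cannot tell whether the numbers pair the samples. A replicate block gave 1218, 17 and 262 genes in the 3 comparisons. Peg3 was not tested under a mean of at least 5 CPM. Depth limited Peg3 most, at 13 to 133 counts a library, and 2 RP libraries limit both RP comparisons.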
